A study of Mus musculus with 88 samples.

Results

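The genes described are 33 subunits of glutamate and GABA receptors, taken from the 48811 genes listed in any of the region tables by their Ensembl identifiers in the GRCm38 annotation. They are 4 AMPA subunits (Gria1 to Gria4), 6 NMDA subunits (Grin1, Grin2a, Grin2b, Grin2c, Grin2d and Grin3a), 5 kainate subunits (Grik1 to Grik5), the delta subunit Grid1, 6 metabotropic glutamate receptors (Grm2, Grm3, Grm4, Grm5, Grm7 and Grm8), 9 GABA-A subunits (Gabra2 to Gabra5, Gabrb1, Gabrb2, Gabrg1, Gabrg3 and Gabrd) and both GABA-B subunits (Gabbr1 and Gabbr2). All 33 are listed in each of the 3 tables. The study exposed male mice of 2 inbred strains, C57BL/6Crl (B6) and DBA/2Crl (D2) in the labels and C57BL/6NCrl and DBA/2NCrl in the study's methods, to chronic social defeat stress (CSDS), in which a mouse is repeatedly attacked by a larger aggressor. Defeated mice that kept approaching an unfamiliar mouse as controls of their strain did were classed as resilient, and those that avoided it as susceptible. At 8 weeks of age, RNA depleted of ribosomal RNA was sequenced from the medial prefrontal cortex (mPFC), the bed nucleus of the stria terminalis (BNST) and the ventral hippocampus (vHPC), in 88 libraries from 81 mice. All mice were of unmodified strains and the controls were not defeated.

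In the mPFC, 6 B6 mice were controls, 6 were resilient and 6 susceptible, beside 6 control and 8 susceptible D2 mice. In the BNST each B6 phenotype had 5 mice, and D2 had 5 control, 3 resilient and 5 susceptible mice. In the vHPC, B6 had 6 controls, 8 resilient and 3 susceptible mice, and D2 had 6 controls and 5 susceptible mice. Resilient D2 mice were sequenced in the BNST only.

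AMPA, NMDA and kainate receptors are tetrameric glutamate-gated channels, and the choice of subunit sets their calcium permeability, their kinetics and where they sit in the synapse. GABA-A receptors are pentameric chloride channels, in which the alpha subunit sets the response to benzodiazepines and much of the location of the receptor, whereas metabotropic glutamate and GABA-B receptors act through G proteins. Gabra5 is known for its high level in the hippocampus, where it carries much of the tonic inhibition of pyramidal cells, and Gabra2 for a place at inhibitory synapses on the axon initial segment and a role in anxiety.

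The results turn on 3 genes in particular, whose promoters are shown because their RNA differed between control mice of the strains in the vHPC by more than that of the other subunits. Gabra2 lies on the minus strand of chromosome 5 (70957597 to 71095849), Gabra5 on the minus strand of chromosome 7 (57407672 to 57510059), and Grik3 on the plus strand of chromosome 4 (125490700 to 125714173). The 250 bases before the transcription start are given 5′ to 3′ on the strand of the gene (RefSeq, GRCm38.p6), with GC boxes (GGGCGG, or CCGCCC on the other strand) in capitals. The windows are chr5:71095850-71096099 for Gabra2, chr7:57510060-57510309 for Gabra5 and chr4:125490446-125490695 for Grik3.
Gabra2: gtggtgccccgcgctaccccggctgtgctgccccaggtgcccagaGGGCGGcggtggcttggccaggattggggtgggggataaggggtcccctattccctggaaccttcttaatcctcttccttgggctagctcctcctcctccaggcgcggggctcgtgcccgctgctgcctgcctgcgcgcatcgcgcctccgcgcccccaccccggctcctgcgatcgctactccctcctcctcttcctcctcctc
Gabra5: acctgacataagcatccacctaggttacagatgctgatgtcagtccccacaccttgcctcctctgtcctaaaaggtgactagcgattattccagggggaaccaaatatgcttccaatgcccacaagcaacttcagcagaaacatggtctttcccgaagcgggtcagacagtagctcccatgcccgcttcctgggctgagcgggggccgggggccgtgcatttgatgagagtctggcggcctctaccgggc
Grik3: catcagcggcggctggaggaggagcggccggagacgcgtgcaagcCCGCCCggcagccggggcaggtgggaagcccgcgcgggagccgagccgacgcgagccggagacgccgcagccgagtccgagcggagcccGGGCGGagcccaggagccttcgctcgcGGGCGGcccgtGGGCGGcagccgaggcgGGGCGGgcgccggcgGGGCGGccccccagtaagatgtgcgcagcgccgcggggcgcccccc
The Grik3 window held 6 GC boxes and 82% G and C, the Gabra2 window held 1 and 70%, and the Gabra5 window held 0 and 56.4%. A promoter was found for 23 of the 33 genes, in 30 windows with a median G and C content of 61.6%, against 52.4% over all 32851 promoter windows. A GC box was in 15 of the 30 windows and in 32.7% of all windows. A TATA box (TATAAA, or TTTATA on the other strand) was in 3 of the 30 and in 12.4% of all windows, and the cAMP response element TGACGTCA, which reads the same on both strands, was in 0 of the 30 and in 1.55%. The motifs do not overlap one another in letters. These matches describe letters in a window and are no evidence of binding.

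The BNST values were counts with totals of 11825757 to 25793910 per library, scaled here to log2 CPM (counts scaled to the library total), and the mPFC and vHPC values were log2 CPM that the authors had already adjusted for batches, so that the depth behind them is not known from these values. Levels were therefore tested within a region only. General inhibitory neuron markers (Gad1, Gad2, Slc32a1, Dlx1 and Dlx6) had summed levels (log2 of the summed CPM) of 9.88 to 10.94 in the BNST, 8.35 to 9.69 in the mPFC and 8.63 to 9.01 in the vHPC. Summed excitatory markers (Slc17a7, Neurod6, Neurod2 and Nrn1) varied from 2.56 to 9.43 among BNST libraries, but from 8.51 to 9.44 in the mPFC and from 9.71 to 10.084 in the vHPC. Striatal projection neuron markers reached 9.74 to 12.97 in the BNST. Hippocampal markers (Prox1, Dsp, Spink8, Fibcd1 and Wfs1) were higher in the vHPC (7.95 to 8.47) than in the mPFC (5.67 to 6.403), while in the BNST, where 3 of the 5 were measured, they reached 6.97 to 8.67 and overlapped the vHPC. The ventral forebrain markers (Esr1, Prlr, Crh, Nts, Avp and Zic1) at 5.04 to 7.66 in the BNST overlapped those of the other regions. In the vHPC, 0 of the 9 library preparation sets of B6 mice held both control and defeated mice, so phenotype and library set cannot be told apart in that strain and region, and in D2 1 of 6 sets held both. Summed oligodendrocyte markers (Mog, Mag, Mobp, Opalin, Ermn and Cnp) also differed between groups and are given beside the results. In bulk tissue, fewer cells of a type and less RNA per cell cannot be told apart.

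Subunit choice, measured as RNA, differed between the regions. To compare subunits, each value was divided by the exon length of its gene and given as a percentage of the sum of its class within the library. The share depends on the length given to each gene. With the longest transcript in place of all exons, the leading subunit of a class changed in 5 of 30 combinations of class and control group, of which the 3 in B6 mice are given beside their shares. Each region was prepared with a kit of its own, so region and kit cannot be told apart. No test was made.

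Among AMPA subunits of control B6 mice, Gria2, which makes the channel impermeable to calcium, had the largest share in the mPFC with 38.1% ± 0.79 (SD, n = 6), against 25.6% ± 3.3 (n = 5) in the BNST and 34.7% ± 1.2 (n = 6) in the vHPC. Gria1, the subunit inserted during synaptic potentiation, took 27.6% ± 1.1 in the mPFC, against 46.3% ± 4.7 for the BNST and 51.2% ± 1.9 for the vHPC. Gria1 thus led in the BNST and the vHPC, and Gria2 in the mPFC. Gria3 and Gria4 took 19.6% ± 0.92 and 14.7% ± 0.88 in the mPFC but 7.54% ± 0.51 and 6.53% ± 0.69 in the vHPC.

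Of the NMDA subunits that set the kinetics, Grin2b led in every region, with shares in control B6 mice of 58.3% ± 1.2 (mPFC), 62.1% ± 4.0 (BNST) and 49.7% ± 0.67 (vHPC). Grin2a, which replaces Grin2b at many synapses during maturation, took 35.6% ± 0.99, 17.1% ± 2.3 and 42.3% ± 0.34. With the longest transcript, Grin2a at 46.4% and Grin2b at 46.0% were almost level in the vHPC. Grin2d, a subunit of interneurons and of subcortical nuclei, took 0.472% ± 0.053 in the mPFC and 0.806% ± 0.082 in the vHPC, but 10.06% ± 3.5 in the BNST. Per length, Grin2d was the lowest of the 33 genes in controls of both strains in the mPFC and the vHPC, whereas in the BNST the lowest was Grm2, a presynaptic autoreceptor.

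The RNA shares of the kainate subunits also differed between the regions. Grik3 led in the mPFC of control B6 mice with 29.9% ± 2.0, followed by Grik2 with 27.6% ± 2.7 and Grik5 with 22.3% ± 1.3. Grik5, a subunit that forms channels only with Grik1 to Grik3, took 57.1% ± 4.9 in the BNST and 41.3% ± 1.3 in the vHPC. The ranges of Grik3 and Grik2 in the mPFC lay within the same spread, so their order there is not resolved, and with the longest transcript Grik2 led with 30.6% against 23.6% for Grik3. Among metabotropic receptors, Grm5 (coupled to phospholipase C) and Grm3 (found on astrocytes as well as neurons) took 34.7% ± 1.7 and 34.3% ± 1.8 in the mPFC, whereas Grm5 alone took 52.3% ± 1.9 in the vHPC. Grm4, a presynaptic receptor, took 16.8% ± 3.8 in the BNST and 2.19% ± 0.43 and 1.52% ± 0.20 in the mPFC and vHPC. Grm8, another presynaptic receptor, took 7.10% ± 0.80 in the mPFC, 0.879% to 1.64% in the BNST and 1.92% ± 0.16 in the vHPC.

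The GABA-A alpha subunits measured also differed between regions. Gabra5 took 53.5% ± 1.1 in the vHPC of control B6 mice, against 20.7% ± 1.4 in the mPFC and 18.5% ± 1.4 in the BNST. Gabra3 led in the mPFC with 39.7% ± 1.5 and took 16.8% ± 4.2 in the BNST and 14.2% ± 0.76 in the vHPC. Gabra2 and Gabra4, the partner of Gabrd in extrasynaptic receptors, took 33.5% ± 5.8 and 31.2% ± 2.6 in the BNST, which do not differ beyond their spread, and with the longest transcript Gabra4 led with 36.0% against 34.0%. Gabra2 took 12.3% ± 2.0 in the mPFC and 11.6% ± 0.62 in the vHPC. For the GABA-B pair, which works as a dimer of both, Gabbr1 exceeded Gabbr2 on the log2 CPM scale, not divided by length, by 0.14 ± 0.18 in the mPFC, by 1.91 ± 0.43 in the BNST and by 1.133 ± 0.070 in the vHPC of control B6 mice. The difference in the mPFC was within its SD, and per length Gabbr1 (5.66) lay below Gabbr2 (5.74) there.

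**Figure D1:**
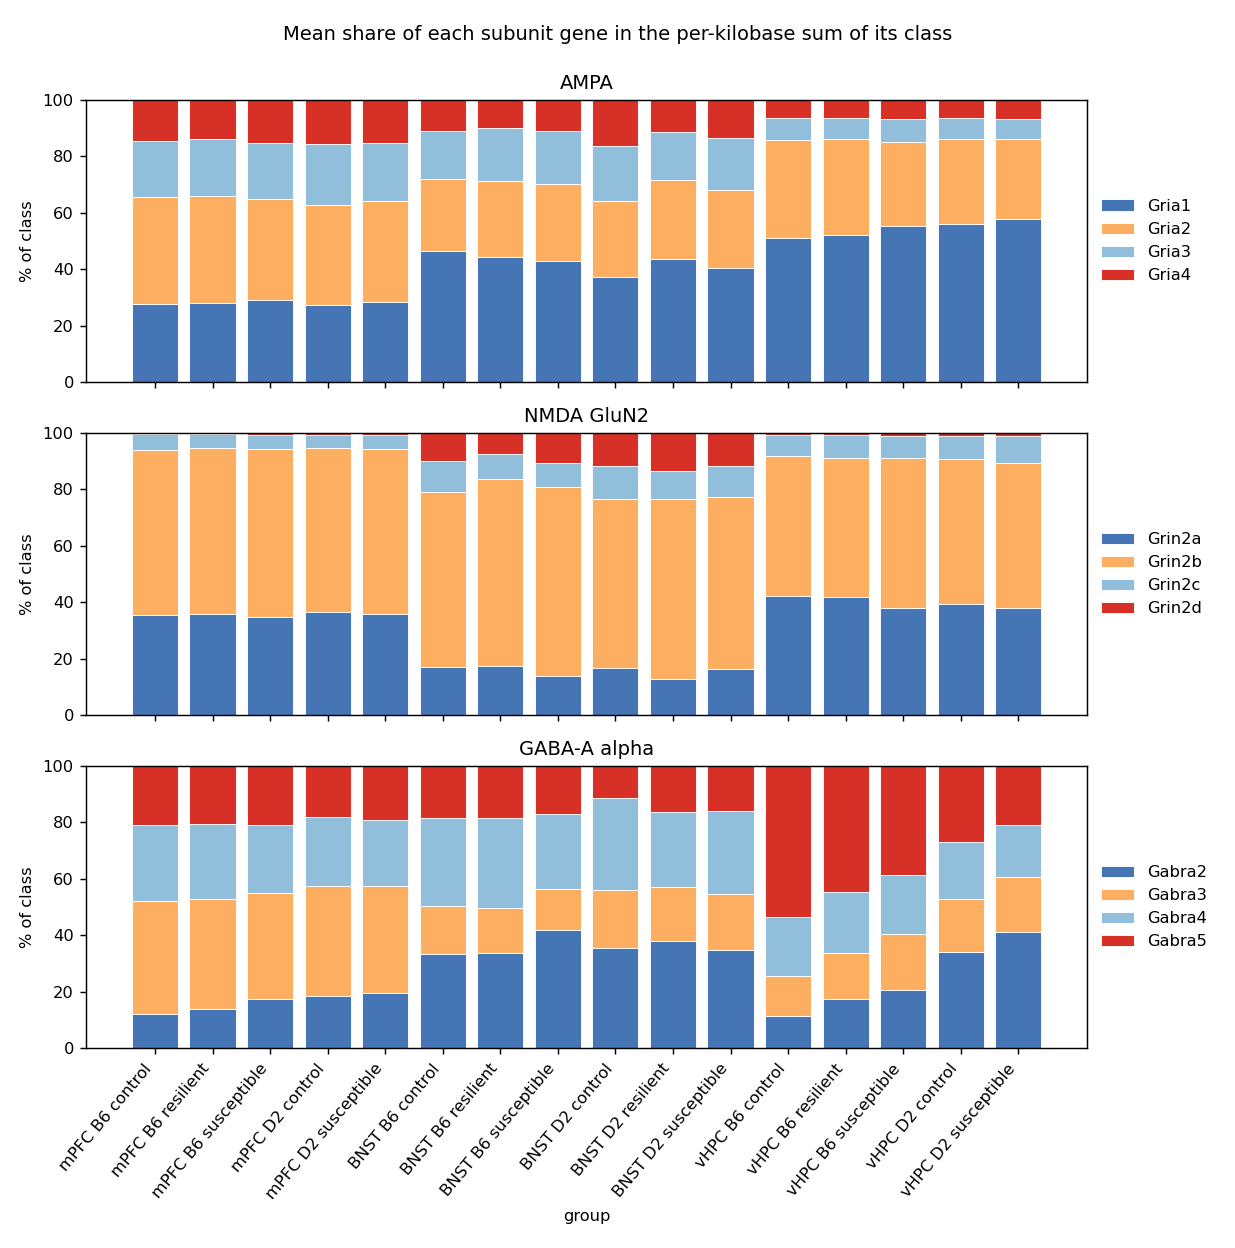
Mean percentage of each subunit gene (y axis) in the per-kilobase sum of its class for AMPA, NMDA GluN2 and GABA-A alpha subunits, with 1 stacked bar for each of the 16 groups of region, strain and phenotype. Grin2d is visible in the BNST (10.06% in control B6 mice) and close to 0 elsewhere, and in the vHPC the Gabra5 share narrows from 53.5% in control B6 to 20.9% in susceptible D2 mice while the Gabra2 share widens from 11.6% to 41.3%.

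The vHPC was the region with most differences. In control mice, 16 of the 33 subunits were higher and 6 lower in D2 than in B6 (limma, adjusted p under 0.05 over 19559 genes), against 30.2% and 29.1% of all genes. Susceptible B6 mice differed from B6 controls in 14 higher and 5 lower subunits (20.5% and 20.1% of all genes, 40.6% together) and from resilient B6 mice in 13 higher and 2 lower (14.1% and 13.6%). Resilient B6 mice differed from controls in 1 higher and 3 lower subunits (4.94% and 5.9% of all genes), and susceptible D2 mice from D2 controls in 1 higher and 1 lower (1.54% and 2.74%). The median log2 fold change of the 33 genes was 0.11 in susceptible B6 mice against controls and 0.10 between the strains, against -0.01 and 0.01 over all genes. All B6 contrasts with controls, and the strain contrast, share the same 6 control libraries. The susceptible B6 group held only 3 mice. Between susceptible and resilient B6 mice, 4 subunits passed without susceptible replicate 2, and 8 without either of the other susceptible mice. The shares of all genes in those fits are not given here.

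Gabra2 and Gabra5 were the subunits that moved in every one of the comparisons with controls, in opposite directions. Gabra2 ranged from 6.32 to 6.57 (median 6.41) log2 CPM in control B6 mice and from 6.71 to 6.96 (median 6.82) in resilient ones, and was 7.12, 7.27 and 7.29 in the 3 susceptible mice. In D2 it ranged from 7.80 to 7.98 (median 7.89) in controls and was 8.04, 8.16, 8.21, 8.29 and 8.33 in susceptible mice. The 5 groups thus followed each other without overlap, from B6 controls at the bottom to susceptible D2 mice at the top. Against controls of the strain, Gabra2 rose by 0.41 (SE 0.05; adjusted p = 4.37e-06, limma) in resilient B6, by 0.81 (SE 0.07; 2.87e-09) in susceptible B6 and by 0.31 (SE 0.06; 0.00188) in susceptible D2 mice, and it was 1.48 (SE 0.06; 1.40e-17) higher in D2 than in B6 controls, a ratio of 2.79. Chosen after its value was seen, susceptible against resilient B6 mice gave 0.40 (SE 0.07; adjusted p = 8.70e-04). The response of susceptible mice was smaller in D2 than in B6 by 0.50 (SE 0.09; adjusted p = 0.00683 for the interaction, limma). Gabra2 was the only one of the 33 genes that passed in this test, where 0.782% of all genes passed. At an unadjusted p under 0.05 there were 11 subunits and 3600 of all 19559 genes. Without B6 susceptible replicate 1 the adjusted p of Gabra2 was 0.0573, and with the library set in the fit 0.587.

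Gabra5 ran the other way. It ranged from 7.1397 to 7.39 (median 7.28) in control B6 mice and from 6.66 to 6.997 (median 6.82) in resilient ones, and was 6.69, 6.79 and 6.80 in susceptible ones. In D2, controls ranged from 6.13 to 6.27 (median 6.19) and susceptible mice had 5.69, 5.81, 5.84, 5.96 and 5.98. Resilient and susceptible B6 mice overlapped, and all other neighbouring groups were apart. The fall against controls was 0.44 (SE 0.05; adjusted p = 1.68e-06, limma) in resilient B6, 0.51 (SE 0.07; 4.71e-06) in susceptible B6 and 0.34 (SE 0.06; 7.92e-04) in susceptible D2 mice. Gabra5 was 0.475 times as high in D2 as in B6 controls (log2 difference -1.07, SE 0.06; adjusted p = 1.24e-14). The interaction for Gabra5 was 0.17 (SE 0.09; adjusted p = 0.304).

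As a log2 difference within a library, Gabra2 minus Gabra5 was -0.85 ± 0.11 (SD) in control B6, -0.00 ± 0.14 in resilient B6, 0.47 ± 0.13 in susceptible B6, 1.704 ± 0.079 in control D2 and 2.35 ± 0.19 in susceptible D2 mice. The share of Gabra5 among the alpha subunits measured went from 53.5% ± 1.1 in control B6 through 44.6% ± 1.6 in resilient and 38.6% ± 1.1 in susceptible B6 to 26.8% ± 1.0 in control D2 and 20.9% ± 2.0 in susceptible D2 mice. Gabra2 took 11.6% ± 0.62, 17.4% ± 1.2, 20.8% ± 1.5, 34.0% ± 1.1 and 41.3% ± 1.6 in the same order. Gabra4 stayed between 18.3% and 21.5% in all 5 groups.

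**Figure D2:**
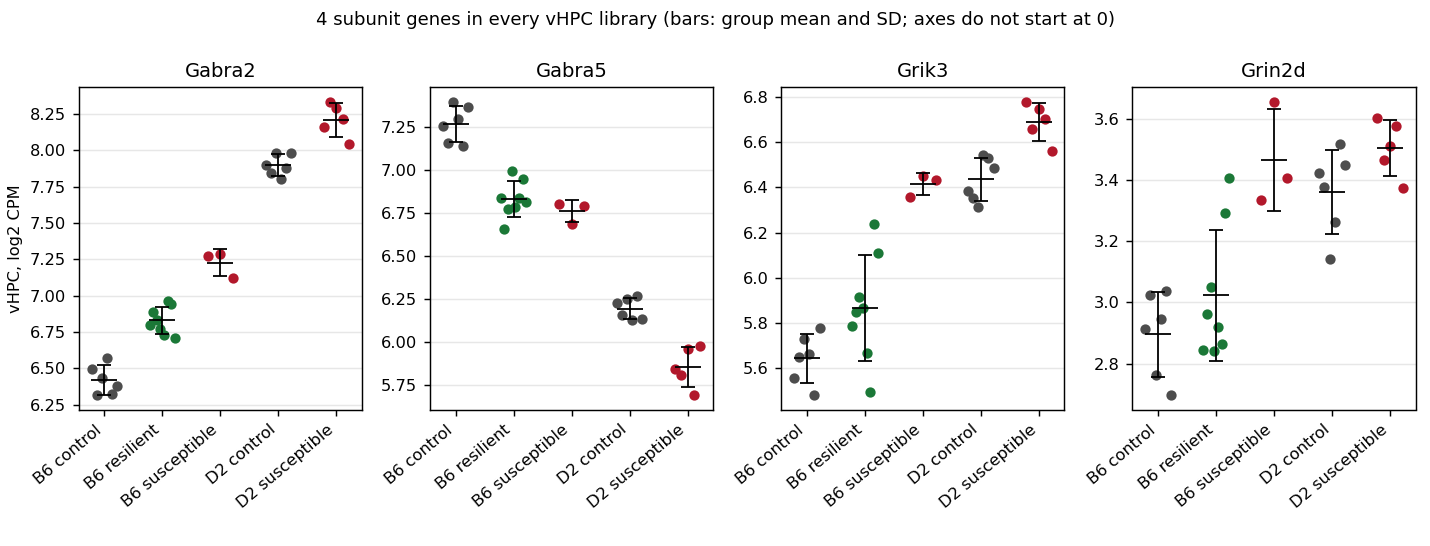
Log2 CPM (y axis) of Gabra2, Gabra5, Grik3 and Grin2d in every vHPC library, 1 point per mouse, by strain and phenotype, with the group mean and SD. Gabra2 climbs from 6.32 to 6.57 in control B6 to 8.04 to 8.33 in susceptible D2 mice, Gabra5 descends, and the Grik3 values of susceptible B6 mice (6.36 to 6.45) lie within those of D2 controls (6.31 to 6.54).

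With the library set as a covariate, 0 subunits passed in resilient B6 against control, 1 in susceptible B6 against control, 0 in susceptible D2 against control and 3 between the strains, and the median standard error grew by up to 4.09 times. Gabra2 was the 1 that passed in susceptible B6 mice, with a log2 fold change of 1.17 and an adjusted p of 0.00406 (limma). No set held both control and defeated B6 mice, so this fit linked them only through D2 mice in the same sets. It also used values already adjusted for batches, and cannot separate phenotype from library set within B6. In susceptible D2 mice, where 1 set held both phenotypes, Gabra2 was 0.06 higher and Gabra5 0.18 lower in this fit, with adjusted p of 0.982 and 0.940. Between the strains, Gabra2 at 1.88 and Gabra5 at -1.16 passed in it, with adjusted p of 5.47e-06 and 3.81e-04.

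The remaining GABA-A genes moved by less. Gabrb2, the beta subunit of the commonest receptors, had 7.701 to 7.81 in control, 7.81 to 7.93 in resilient and 7.92, 7.97 and 8.01 in susceptible B6 mice, and 7.99 to 8.13 in control D2 mice. It was 0.11 (SE 0.04; adjusted p = 0.0343, limma) higher in susceptible than in resilient B6 mice. Gabrd, which forms extrasynaptic receptors with Gabra4, was 4.34, 4.51 and 4.51 in susceptible B6 mice, below the 4.54 to 4.89 (median 4.73) of controls, and resilient mice spread from 4.48 to 4.85. It fell by 0.26 (SE 0.09; adjusted p = 0.0223) against controls and by 0.29 (SE 0.08; 0.0171) against resilient mice, and it was 0.24 lower in D2 than in B6 controls (0.00634), whose ranges overlapped. Gabrg3, a minor gamma subunit that lies next to Gabra5 on chromosome 7, fell by 0.15 (SE 0.05; adjusted p = 0.0328) in resilient B6 mice, where values of 5.63 to 5.88 overlapped the 5.73 to 5.95 of controls, and was 5.83, 5.83 and 5.84 in susceptible ones. It was 0.16 lower in D2 controls (0.00816). Gabra4 fell by 0.12 (SE 0.04; 0.0331) in resilient B6 mice. Gabrg1, which lies near Gabra2 on chromosome 5, fell by 0.28 (SE 0.11; adjusted p = 0.0491) in susceptible B6 mice. Reads in the 196 bases that Gabra4 and Gabrb1 share on opposite strands (chromosome 5, 71658113 to 71658308) could count for either, since the sources used here do not say whether counting used strand.

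Among glutamate receptors of the vHPC, the kainate subunit Grik3 differed most. Its values ranged from 5.48 to 5.78 (median 5.66) in control B6 and from 5.49 to 6.24 (median 5.86) in resilient mice, and were 6.36, 6.43 and 6.45 in susceptible mice. D2 controls lay at 6.31 to 6.54 (median 6.43) and susceptible D2 mice at 6.56, 6.66, 6.70, 6.75 and 6.78. Susceptible B6 mice were thus above every resilient and control B6 mouse and within the range of D2 controls. Grik3 rose by 0.77 (SE 0.10; adjusted p = 4.63e-06, limma) against controls and by 0.55 (SE 0.10; 0.00170) against resilient mice, and was 0.79 (SE 0.09; 1.67e-08) higher in D2 than in B6 controls.

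Grin1, the subunit that every NMDA receptor needs, ranged from 7.33 to 7.52 (median 7.40) in control B6 and from 7.03 to 7.88 (median 7.39) in resilient mice, and was 7.83, 7.91 and 8.01 in susceptible mice. It rose by 0.51 (SE 0.13; adjusted p = 0.00291, limma) against controls and by 0.47 (SE 0.12; 0.00963) against resilient mice, which spanned the whole gap between the other groups. Grin2d ranged from 2.70 to 3.04 (median 2.93) in control B6 and from 2.84 to 3.41 (median 2.94) in resilient mice, and was 3.34, 3.41 and 3.65 in susceptible mice. It rose by 0.57 (SE 0.11; adjusted p = 3.65e-04) and 0.44 (SE 0.11; 0.00735) against these groups, and D2 controls, with 3.14 to 3.52, were 0.47 (SE 0.09; 1.11e-04) above B6 controls. Grin2b and Grin2a, the main GluN2 genes, moved by less. Grin2b was 10.66 to 10.81 in control and 10.83, 10.86 and 10.896 in susceptible B6 mice, which did not overlap but did not pass (0.11, SE 0.05; adjusted p = 0.0588, limma). Grin2a was 9.97 to 10.121 and 9.87, 9.92 and 9.97 and fell by 0.12 (SE 0.05; adjusted p = 0.0323). Grin2a minus Grin2b was -0.71 in control and -0.94 in susceptible B6 mice.

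AMPA subunits gave 1 call in susceptible B6 mice. Gria2 was 10.51, 10.52 and 10.55 there, below the 10.60 to 10.85 (median 10.77) of controls, while resilient mice spread from 10.49 to 10.86. Gria2 fell by 0.22 (SE 0.07; adjusted p = 0.0140, limma) against controls and by 0.18 (SE 0.07; 0.0430) against resilient mice, and was 0.17 lower in D2 than in B6 controls (0.0117), with overlapping ranges. Gria1 was 9.83 to 10.08 in control and 9.98, 10.05 and 10.16 in susceptible B6 mice, which overlapped, and Gria4 6.89 to 7.192 and 6.94, 7.16 and 7.22.

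The metabotropic receptors and GABA-B subunits of the vHPC passed in the upward direction only. Grm2 ranged from 4.704 to 5.38 (median 4.92) in control B6 and from 4.47 to 5.46 (median 4.93) in resilient mice and was 5.35, 5.44 and 5.48 in susceptible ones, so that the highest resilient mouse lay among the susceptible mice. It rose by 0.47 (SE 0.17; adjusted p = 0.0396, limma) against resilient mice. Grm7, a presynaptic receptor of low glutamate affinity, rose by 0.09 (SE 0.03; 0.0399) in the same comparison. Grm4 was 0.47 (SE 0.09; 6.46e-05) higher in D2 than in B6 controls. Gabbr2 was 8.02 to 8.19 (median 8.13) in control B6, 8.01 to 8.34 in resilient and 8.37, 8.40 and 8.41 in susceptible mice, above both other groups, while Gabbr1 was 9.18 to 9.31 in control and 9.25, 9.31 and 9.33 in susceptible mice.

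By class, susceptible B6 mice of the vHPC had 3 NMDA subunits higher and 1 lower than controls, 3 kainate subunits higher, 3 metabotropic receptors higher, Grid1 and Gabbr2 higher, 1 AMPA subunit lower, and 3 GABA-A subunits higher and 3 lower. Of 54 partner genes measured (auxiliary subunits, scaffolds, GABA receptor partners, and enzymes and transporters of both transmitters), 23 were higher and 6 lower. Over all genes, 20.5% were higher and 20.1% lower. Slc6a11, a GABA transporter, rose by 0.91, and the postsynaptic scaffolds Shank3 and Shank1 by 0.88 and 0.84, while Glul, the glutamine synthetase of astrocytes, and Nptx2, a pentraxin that clusters AMPA receptors, fell by 0.56 each and Frrs1l, an AMPA receptor assembly factor, by 0.39. Against resilient mice 24 partners were higher and 4 lower (14.1% and 13.6% of all genes). In resilient B6 and susceptible D2 mice no partner rose and 3 and 2 fell, with Glul at -0.23 and -0.19 and Frrs1l at -0.26 and -0.22. Of all genes, 4.94% and 1.54% were higher and 5.9% and 2.74% lower in these comparisons. Between the strains 23 partners were higher and 8 lower in D2 (30.2% and 29.1% of all genes), with Nptx2 at -1.14, Glul at -1.01 and Slc6a11 at 0.85.

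Markers of other cells moved with these groups in the vHPC. Summed oligodendrocyte markers were 10.194 to 10.36 in control B6, 9.68 to 10.203 in resilient B6, 9.17 to 9.34 in susceptible B6, 8.49 to 9.18 in control D2 and 8.16 to 8.59 in susceptible D2 mice. Of the 6 markers 4 were lower in resilient B6, 6 in susceptible B6, 2 in susceptible D2 mice and 6 in D2 controls, with medians of -0.37, -0.91, -0.36 and -1.43. Of all genes, 5.9%, 20.1%, 2.74% and 29.1% were lower in the same comparisons. Summed cortical neuron markers (Tbr1, Rorb, Cux2, Fezf2 and Lamp5) were 6.80 to 7.189 in control, 6.74 to 7.43 in resilient and 7.48 to 7.59 in susceptible B6 mice, and 4 of the 5 were higher in susceptible mice than in controls (median 0.73), as were 20.5% of all genes. Between susceptible and control B6 mice, 5 more lists had summed levels that did not overlap. These groups held 3 and 6 mice, and 40.6% of all genes passed between them. Excitatory neuron markers were 9.95 to 10.01 in susceptible and 9.79 to 9.87 in control mice, and inhibitory neuron markers 8.87 to 8.96 and 8.64 to 8.82. Markers of astrocytes were 10.76 to 10.84 in susceptible and 10.98 to 11.09 in control mice, those of microglia 7.499 to 7.56 and 7.79 to 7.85, and those of endothelial cells 7.72 to 7.86 and 8.09 to 8.25. The part of any of these lists in the subunit differences was not tested.

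In the mPFC, Gabra2 and Grin2d were the 2 subunits that passed in susceptible B6 mice against controls (limma), both higher, where 2.22% of all 18946 genes passed. Gabra2 was 6.28, 6.29, 6.391, 6.45, 6.57 and 7.12 in controls, 6.34, 6.41, 6.52, 6.64, 7.07 and 7.1705 in resilient, and 7.06, 7.09, 7.09, 7.215, 7.24 and 7.31 in susceptible mice. Values in B6 formed a lower and an upper set, and all susceptible mice, 2 resilient mice and 1 control lay in the upper one. The rise was 0.65 (SE 0.13; adjusted p = 0.0142) against controls, and D2 controls, at 7.13 to 7.50 (median 7.22), were 0.74 (SE 0.13; adjusted p = 8.30e-05) above B6 controls. The rise in susceptible B6 mice had an adjusted p of 0.0595 with the library set in the fit, 0.106 from those groups alone and 0.0562 without control replicate 3.

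The sets of Gabra2 values followed the prefix of the mouse identifiers in the labels, a grouping noticed after the values were seen. The 9 B6 mice with prefix C1 or C2 had 6.28 to 6.64 and the 9 with prefix C5 or C7 had 7.06 to 7.31, whatever their phenotype, and the 14 D2 mice 7.06 to 7.58. Of the 6 susceptible mice all were C5 or C7, against 1 control and 2 resilient mice. Gabra2 was the 1 of the 33 subunits whose B6 values did not overlap between the prefix sets, and 0.496% of all genes (94 of 18946) did not. With the prefix as a covariate Gabra2 differed by 0.05 between susceptible and control mice (adjusted p = 0.966), and with the pair of prefix sets, a fit added after the data were seen, by 0.09 (adjusted p = 0.936). Within prefix C7, the control had 7.12 and the 5 susceptible mice 7.09 to 7.31, and within C5 the 2 resilient mice had 7.07 and 7.1705 and the susceptible one 7.06. All B6 mice of the vHPC had prefix C1 or C2, so that the vHPC differences in Gabra2 between B6 phenotypes lie within that set. The vHPC strain difference compares D2 with that set only, so strain and prefix set cannot be told apart in it. In the mPFC, all B6 controls but 1 were of that set. Within C1 of the vHPC, 3 controls had 6.32 to 6.49, 3 resilient mice 6.80 to 6.89 and 2 susceptible mice 7.27 and 7.29, and within C2 3 controls had 6.32 to 6.57, 5 resilient mice 6.71 to 6.96 and the susceptible one 7.12.

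**Figure D3:**
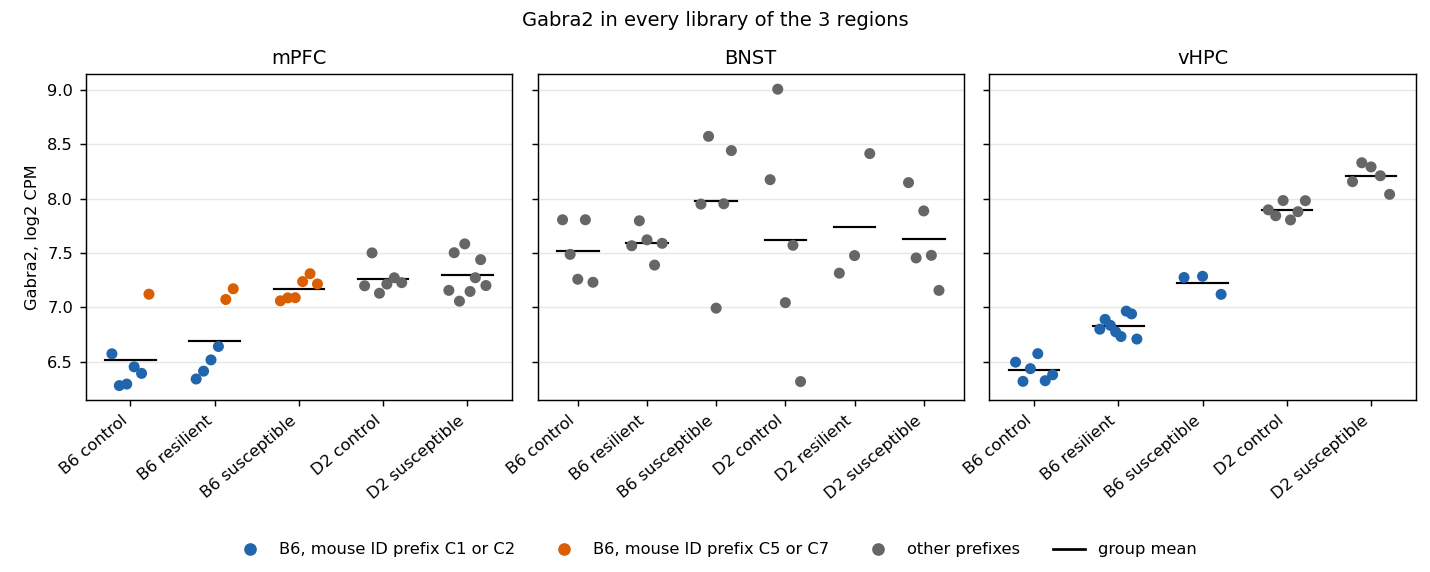
Gabra2 in log2 CPM (y axis) in every library of the mPFC, BNST and vHPC by strain and phenotype, 1 point per mouse, with B6 points coloured by mouse ID prefix and a mark at each group mean. In the mPFC the B6 mice of prefixes C1 and C2 lie at 6.28 to 6.64 and those of C5 and C7 at 7.06 to 7.31, in the BNST the groups overlap, and in the vHPC the groups are apart.

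Grin2d in the mPFC was near the lower end of the table, at 1.49 to 1.99 (median 1.76) in control, 1.43 to 2.15 (median 1.65) in resilient and 1.94 to 2.604 (median 2.229) in susceptible B6 mice, which overlapped both other groups at their low end. It rose by 0.48 (SE 0.13; adjusted p = 0.0406, limma) against controls and by 0.54 (SE 0.13; adjusted p = 0.0306) against resilient mice, the single subunit to pass in the latter comparison, where 2.02% of all genes passed. Its median was 1.66 in C1 and C2 mice and 2.136 in C5 and C7 mice, and with the prefix sets in the fit the differences were 0.25 and 0.35 (adjusted p = 0.849 and 0.614). Neither difference passed with the library set in the fit (adjusted p = 0.103 and 0.0968), nor when most single mice were left out, with adjusted p up to 0.0986 and 0.0934. All 6 oligodendrocyte markers were lower in susceptible than in control B6 mice, with a median of -0.81 and summed levels of 8.53 to 9.36 against 9.05 to 10.13, and their part in the subunit values was not tested. Of 54 partner genes, 0 passed against controls, and 12 had an unadjusted p under 0.05, as did 3441 of 18946 genes. Against resilient mice 1 passed, the GABA-B auxiliary subunit Kctd8, which fell by 0.36 (adjusted p = 0.0483, limma).

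No subunit passed in resilient B6 or susceptible D2 mice against controls in the mPFC, where 0% of all genes passed in either (limma). At an unadjusted p under 0.05 there were 1 and 2 subunits, and 731 and 734 of all 18946 genes. Grid1 at 0.10 and Gria4 at -0.10 had the smallest p in resilient mice, and Grm3 at -0.21 and Gabrb2 at -0.13 in susceptible D2 mice. Gria4 was 7.87 to 7.99 in resilient and 7.88 to 8.09 in control B6 mice, and Gabrb2 7.97 to 8.47 in susceptible and 8.28 to 8.50 in control D2 mice. The interaction of strain and susceptibility gave 0 calls among all genes. At an unadjusted p under 0.05 it gave 4 subunits and 1766 of all 18946 genes. Gabra2 was at -0.61 (adjusted p = 0.441, limma) and Grin2d at -0.40 (adjusted p = 0.502).

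Between control mice of the mPFC, 6 subunits were higher and 1 lower in D2 (limma), where 27.8% of all genes passed. Beside Gabra2, these were Grm2 at 0.57 (SE 0.12; adjusted p = 4.32e-04), Grik3 at 0.33 (SE 0.09; 0.00353), Grik5 at 0.27 (SE 0.06; 0.00149), Gabrb2 at 0.21 (SE 0.07; 0.0186), Grin1 at 0.16 (SE 0.06; 0.0403) and Gria2 at -0.11 (SE 0.03; 0.0147). Grm2 was 3.86 to 4.35 (median 4.203) in B6 and 4.35 to 4.92 (median 4.77) in D2 controls, which did not overlap although the nearest mice were almost level. Grik3 was 6.80 to 7.29 (median 7.01) against 7.209 to 7.48 (median 7.35), Grin1 8.04 to 8.38 against 8.27 to 8.55, Gabrb2 8.01 to 8.31 against 8.28 to 8.50, and Gria2 10.62 to 10.74 against 10.47 to 10.66, all with some overlap. Summed oligodendrocyte markers were 8.37 to 9.002 in D2 controls, and all 6 were lower than in B6 (median -0.94), as were 14.4% of all genes. Among partners, 6 were higher, led by Slc17a8, a vesicular glutamate transporter, at 0.47, and 4 lower, led by the scaffold Homer2 at -0.73 and Glul at -0.53.

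In the BNST, 0 of the 33 subunits passed in any comparison (edgeR quasi-likelihood), and over 17515 genes 0% passed in each, except 0.00571% in susceptible against resilient B6 mice and 2.51% between the strains. At an unadjusted p under 0.05 there were 1 subunit in resilient and 1 in susceptible B6 mice against controls, and 2 between these. There were 2 in resilient and 0 in susceptible D2 mice and 2 between the strains. The interactions of strain with susceptibility and with resilience gave 1 and 3. Over all 17515 genes, the numbers in the same order were 328, 1115, 1323, 953, 1056, 2339, 2004 and 588. DESeq2 called 1 subunit between the strains and 0 in the other comparisons. The medians of the 33 genes lay between -0.08 and 0.03.

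The spread between BNST mice was wide for several subunits. Gabra2 was 7.23, 7.26, 7.49, 7.81 and 7.81 in control B6, 7.39, 7.57, 7.59, 7.62 and 7.80 in resilient B6 and 6.99, 7.95, 7.95, 8.44 and 8.57 in susceptible B6 mice. In D2 it was 6.32, 7.04, 7.57, 8.17 and 9.01 in controls, 7.31, 7.48 and 8.42 in resilient and 7.16, 7.45, 7.48, 7.89 and 8.15 in susceptible mice. All groups overlapped, and the log2 fold change of susceptible B6 mice against controls was 0.54 (SE 0.34; adjusted p = 0.858, edgeR). Gabra5 was 5.07, 5.13, 5.17, 5.46 and 5.73 in control B6 and 3.56, 4.0998, 4.704, 5.13 and 5.82 in control D2 mice, a difference of -0.47 (SE 0.27; adjusted p = 0.467).

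Grm2 had the largest log2 fold changes among the subunits in B6 mice of the BNST. It was 1.43, 1.88, 2.08, 2.34 and 3.44 in control, 1.498, 1.97, 2.32, 3.603 and 5.25 in resilient, and 1.37, 1.48, 1.55, 1.62 and 1.99 in susceptible B6 mice. Resilient mice were spread most widely, and the groups overlapped at their low end. Its log2 fold change was 1.22 (SE 0.59; adjusted p = 0.9999, edgeR) in resilient mice against controls and -2.02 (SE 0.61; adjusted p = 0.343) in susceptible against resilient mice, and summed excitatory neuron markers ranged from 3.23 to 9.43 among the same resilient mice. The part of these markers in the Grm2 values was not tested. Gabbr2 was 7.35, 7.57, 7.78, 8.41 and 8.85 in resilient and 7.45, 7.46, 7.61, 7.62 and 7.79 in control B6 mice (0.51, SE 0.25), and Grin2a 7.61, 7.97, 8.29, 8.55 and 8.62 in resilient and 7.43, 7.60, 7.62, 7.86 and 8.34 in susceptible mice (-0.45, SE 0.18, for susceptible against resilient mice).

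Among BNST kainate subunits, Grik3 was 6.48, 6.61, 6.67, 6.80 and 7.25 in susceptible and 6.90, 6.94, 6.99, 7.29 and 7.33 in control B6 mice, of which 1 susceptible mouse lay in the control range (-0.31, SE 0.15; adjusted p = 0.771, edgeR). Grik4, which like Grik5 works only with other kainate subunits, was 4.14, 4.46, 4.63, 4.82 and 5.10 in susceptible and 4.698, 4.92, 4.94, 5.14 and 5.35 in control B6 mice (-0.36, SE 0.18). The interactions of strain and susceptibility were 0.53 (SE 0.21; adjusted p = 0.307) for Grik3 and 0.52 (SE 0.26; adjusted p = 0.453) for Grik4. Grik1, a subunit found on interneurons, was 4.28, 4.28, 4.31, 5.26 and 5.77 in control D2 and 3.63, 3.73, 3.84, 4.303 and 4.35 in control B6 mice, a difference of 0.92 (SE 0.29; adjusted p = 0.101 by edgeR and 0.0421 by DESeq2). The values of 5.77 and 5.26 were those of D2 control replicates 2 and 5. Grik1 was 3.92, 4.06, 4.34, 4.78 and 4.81 in susceptible D2 mice (-0.49, SE 0.28, against controls).

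The other BNST differences named did not pass either, and some of their groups were spread widely. Gria4 was 6.55, 6.66, 6.94, 7.34 and 7.63 in control D2 and 6.43, 6.63, 6.65, 6.72 and 6.92 in control B6 mice (0.41, SE 0.17; adjusted p = 0.283, edgeR). Gabrb2 was 6.60, 6.83, 6.98, 7.76 and 8.26 in control D2 mice, 6.33, 6.51 and 6.92 in resilient and 6.57, 6.77, 7.05, 7.07 and 7.41 in susceptible ones. The differences from controls were -0.82 (SE 0.30; adjusted p = 0.858) and -0.43 (SE 0.25; adjusted p = 0.901). The highest D2 control values of Gria4 (7.63 and 7.34) and Gabrb2 (8.26 and 7.76) were again those of replicates 2 and 5. Replicate 2 was also lowest in its group for Grin1 (6.74) and Gabrd (3.11) and highest for Gabra2 (9.01). Summed thalamic neuron markers (Tcf7l2, Prkcd, Slc17a6 and Lef1) ranged from 6.73 to 9.996 among the same D2 controls and from 6.17 to 7.76 in the other BNST groups, and their part in these values was not tested. Grin2a was 7.25, 7.53 and 7.67 in resilient D2 mice and 7.57, 7.83, 7.997, 8.07 and 8.21 in controls (-0.46, SE 0.22). The interactions of strain and resilience were -0.98 (SE 0.39) for Gabbr2 and -0.66 (SE 0.28) for Grin2a. Of 56 partner genes, 0 passed in any BNST comparison (edgeR), and 2 to 9 had an unadjusted p under 0.05, as did 328 to 2339 of 17515 genes.

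Set side by side, the same comparison gave different sizes in the 3 regions, each with its own scale and kit, and the difference between regions was not tested. For D2 against B6 controls, Gabra2 was higher by 0.74 in the mPFC, by 0.37 in the BNST (adjusted p = 0.649, edgeR) and by 1.48 in the vHPC, whereas Gabra5 was -0.04 (adjusted p = 0.749, limma), -0.47 and -1.07. Most B6 controls of the mPFC and all of the vHPC had prefix C1 or C2, the set with lower Gabra2 in the mPFC. Grik3 was 0.33 higher in the mPFC and 0.79 in the vHPC. For susceptible against control B6 mice, Gabra2 was 0.65, 0.54 and 0.81 in the same order of regions. Of these, the BNST value did not pass, and the mPFC value did not pass with the mouse ID prefix in the fit. Gabra5 was 0.13 (adjusted p = 0.359, limma), 0.01 (0.999, edgeR) and -0.51. Of the 81 mice, 7 were sequenced in the mPFC as well as the vHPC, so those 2 regions are not independent in full.

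**Figure D4:**
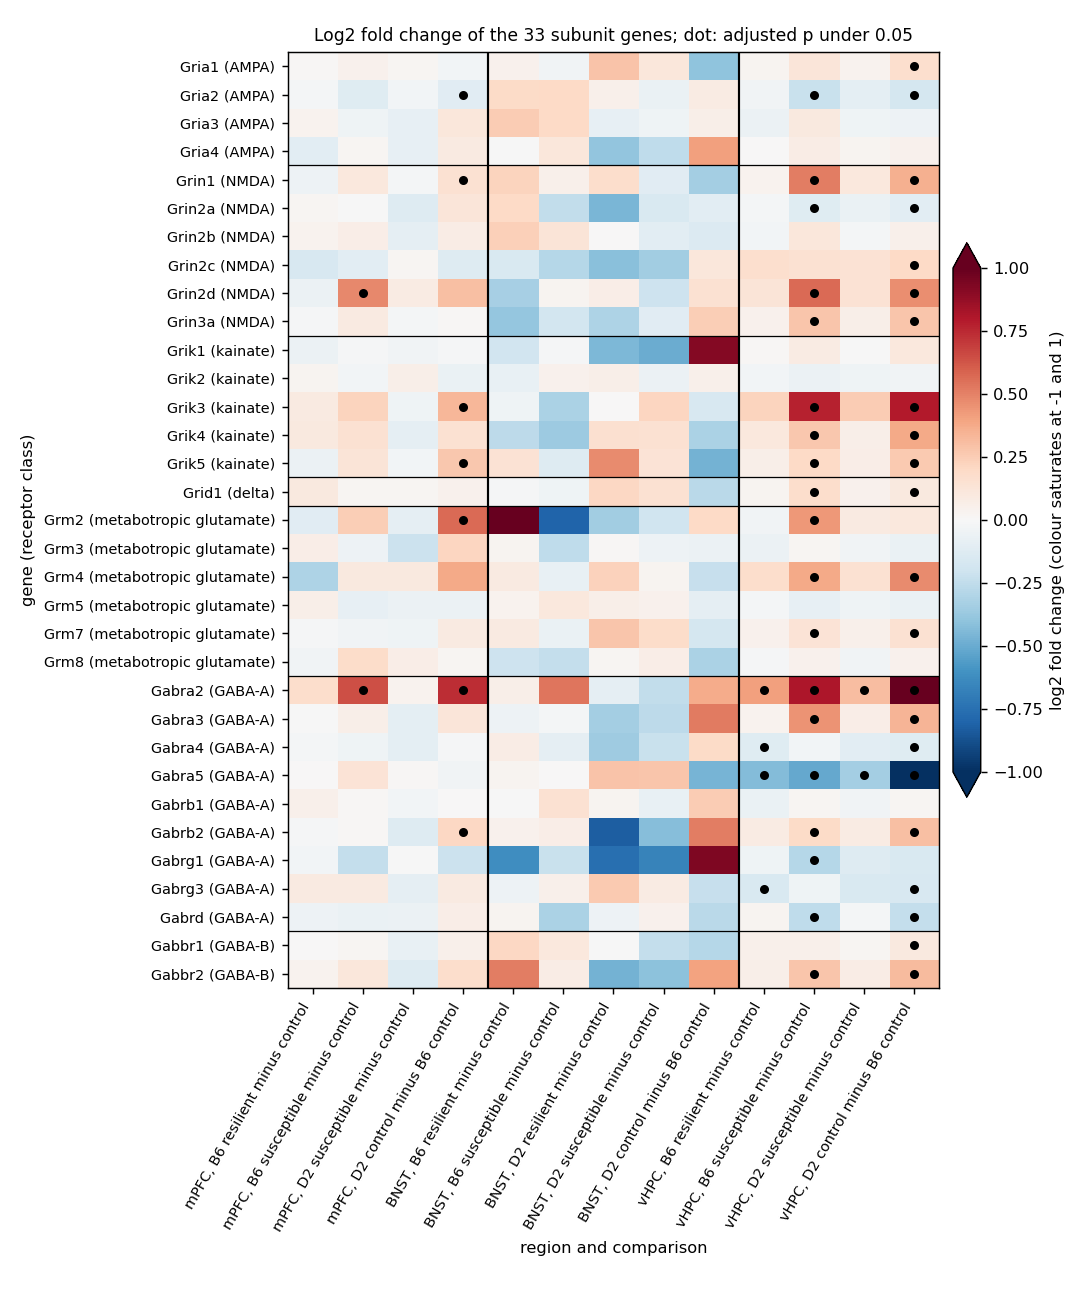
Log2 fold change (colour) of the 33 subunit genes, ordered by receptor class (y axis), in defeated mice of each phenotype against same-strain controls and in D2 against B6 controls in each region (x axis), with a dot where the adjusted p was under 0.05. The vHPC columns for susceptible B6 mice and for the strains hold 19 and 22 dots, the BNST columns none, and Gabra2 and Gabra5 are dotted in all 4 vHPC columns.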

How the data were processed

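RNA-seq of 88 libraries from 3 brain regions was analysed from the processed tables. For the BNST, the authors deposited whole-number read counts per Ensembl gene. For the mPFC and the vHPC, they deposited log2 CPM values made with voom in limma and adjusted with ComBat for library sets (in the vHPC also for sequencing sets), so batch terms can no longer be estimated from raw values. Reads had been trimmed, freed of PCR duplicates, aligned to GRCm38 with STAR and counted with HTSeq. The regions were prepared with different kits (ScriptSeq for the mPFC, Ovation for the BNST and Nextera for the vHPC).

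BNST genes that reached 1 CPM in 6 or more libraries (17515 genes) were scaled by TMM and tested with the robust quasi-likelihood test of edgeR 4.0.16, and the other tables (18946 and 19559 genes) with robust empirical Bayes in limma 3.58.1 (R 4.3.3), with 1 mean per strain and phenotype within a region. P-values were adjusted by Benjamini-Hochberg over all genes of a table, at a threshold of 0.05. BNST levels in the text are log2 CPM with a prior count of 0.5. The median BNST library held 15273698 counts. Every test is two-sided. Levels per length used the union of exons of each gene. DESeq2 1.42.0 and sva 3.50.0 served for alternatives, and the fits were tested on simulated data. Replicates are separate mice. No deposited columns held identical values, and all columns were used.

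The 33 genes, the partner lists, the marker lists and the tests were chosen with earlier results of these data known. In each comparison the text names every subunit that passed where at most 8 did, otherwise the 4 highest and 4 lowest fold changes among them, and where none passed the 2 with the smallest p. Values by mouse are given for subunits named in at least 2 comparisons and for Grin2a, Grin2b, Gria1, Gria2, Gabra2, Gabra5, Gabbr1 and Gabbr2. Up to 3 partner genes are named in each direction. Alternatives left out each mouse in turn, added the library set, the mouse ID prefix or the sequencing set as a covariate, and changed the normalization, the filter, the tool or the samples in the fit. Some marker genes are not reported here.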

Additional observations from a re-analysis of the deposited data

Results flagged for a closer look

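Among 252 groups of 4 to 10 mice for the 18 subunits with values by mouse, 15 held a value set far apart from the rest by Dixon's criterion, and chance marks about 1 in 20 groups. Of these, 8 came from 1 mouse, the mPFC of B6 susceptible replicate 4, which was lowest in its group for Gabbr1 (8.35), Gabbr2 (7.85), Gabrg3 (6.21), Grik3 (6.90), Grik4 (4.32), Grin2a (9.10) and Grin2b (10.4 log2 CPM) and highest for Gria4 (8.32). The same library had summed excitatory neuron markers of 8.51 (9.14 to 9.35 in the rest of its group), cortical neuron markers of 8.27 (8.75 to 9.03) and inhibitory neuron markers of 9.69 (8.35 to 9.25), and the part of these in the receptor values was not tested. Its Gabra2 value of 7.24 lay within its group.

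In the BNST, B6 susceptible replicate 3 stood apart for Gabbr1 (10.4) and Grin1 (10.23), and B6 resilient replicate 5 for Gria1 (8.45). In the mPFC, Gabra2 stood apart in B6 control replicate 6 (7.12), the C7 mouse described above, Gabrb2 in D2 susceptible replicate 7 (7.97) and Gabrd in B6 resilient replicate 5 (5.25). In the vHPC, Grik1 stood apart in B6 resilient replicate 4 (5.06). The change of vHPC Gabra2 from control to susceptible mice differed between the strains by -0.50 (D2 minus B6, adjusted p = 0.00683, limma). As given above, it lost the call when a B6 susceptible mouse was left out, and with the library set in the fit. No library set of B6 mice in the vHPC held both control and defeated mice, so phenotype and set cannot be told apart there.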

How the results depend on the processing

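No paired analysis was possible because replicate numbers only follow accession order and pair no mice between groups. Counts of subunits that passed changed as follows, and except where a fit uses fewer mice or genes the cause was not tested. The shares of all genes that passed in the alternative fits, here and above, are not given. A changed count can therefore not be told from a change over all genes. With the library set as a covariate they were 0 in susceptible B6 mice of the mPFC against controls and against resilient mice, and in the vHPC 0, 1 and 0 for resilient against control, susceptible against control and susceptible against resilient B6 mice, 0 for D2, 3 for strain and 0 for the interaction. For defeated B6 mice against controls in the vHPC, this fit relied on D2 mice, as described above. With the mouse ID prefix, or the pair of prefix sets added after seeing the data, both mPFC counts of susceptible B6 mice were 0, as they were from the groups compared alone. The mPFC count against resilient mice was 2 at a mean log2 CPM of at least 1 and 3 with quantile normalization. In the BNST, DESeq2 gave 1 for strain, and without TMM scaling the susceptibility interaction gave 5. In the vHPC, resilient against control gave 2 with the sequencing set and 2 from the groups compared, susceptible against resilient 4 from the groups compared, and the interaction 2 with quantile normalization and 5 from the groups compared.

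Without single mice the counts ranged in the mPFC from 0 to 3 (susceptible against control), 0 to 4 (susceptible against resilient) and 5 to 8 (strain), and in the vHPC from 2 to 5, 13 to 17, 4 to 18, 2 to 3, 20 to 23 and 0 to 1 (resilient and susceptible against control, susceptible against resilient, D2, strain and interaction). All other such counts were 0. Directions turned for Gabra2 in the mPFC interaction with the prefix (0.012), and with the library set in the vHPC for Gabra4 (0.091) and Gabrg3 (0.032) in resilient mice and Gabrg3 between strains (0.0049). Of the other fold changes of named subunits, 350 kept direction and side of the threshold, 63 lost the call and 3 gained it, and without single mice 687 kept and 83 lost it. With the longest transcript as gene length, 87 of the 138 class shares of control groups moved by over 1 SD. The strain contrast with prefix, and both D2 resilience contrasts with prefix, could not be fitted. The mPFC and vHPC values do not give depth. The study lists read numbers in its extended data, which are not given here.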

Other observations

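Other genes also separated the prefix sets of B6 mice in the mPFC. Nnt, a mitochondrial transhydrogenase, was 5.04 to 5.26 log2 CPM in the 9 mice of prefix C1 or C2 and 5.63 to 5.93 in the 9 of prefix C5 or C7, and 4.96 to 5.35 in D2. Wdfy1, an endosomal adaptor, was 4.868 to 5.187, 5.98 to 6.48 and 6.09 to 6.60. As background, the substrain C57BL/6J is known to carry variants that lower Gabra2 and Nnt, while the labels name C57BL/6Crl for all B6 mice, the study's methods name C57BL/6NCrl, and neither gives a genotype. Any part of such variants in these values was not tested.

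The striatal projection neuron markers of the mPFC were 7.86 to 9.25 in C1 and C2 mice and 7.42 to 8.16 in C5 and C7 mice. Summed choroid plexus markers ranged from 3.31 to 11.04 in the vHPC.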
